A study of Mus musculus with 11 samples.

Results

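The genes described here are the enzymes and transporters that take glucose to lactate, together with genes that low oxygen is known to induce, in the mouse yolk sac. They were chosen by symbol from a list of 37, and all 37 are among the 15061 genes of the deposited table. All 37 also passed the filter on low counts, which left 14671 genes for testing. The list was read in 7 roles: 2 glucose transporters, 3 enzymes of hexose phosphorylation, 5 of the phosphofructokinase step, 9 of lower glycolysis, 5 of pyruvate and lactate handling, 11 other hypoxia-induced genes and 2 alpha subunits of the hypoxia-inducible factor (HIF).

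Glycolysis splits glucose into pyruvate in the cytosol, and lactate dehydrogenase turns pyruvate into lactate, which leaves the cell through monocarboxylate transporters. HIF is a pair of an alpha and a beta subunit; prolyl hydroxylases that need oxygen mark the alpha subunit for destruction, so in low oxygen the pair builds up and switches on genes of glucose uptake, glycolysis and oxygen-saving metabolism. The visceral endoderm of the yolk sac takes up and passes nutrients to the embryo before the placenta does, and its mesoderm carries the first blood and vessels.

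Total RNA of yolk sacs taken at embryonic day 9.5 was sequenced in 11 libraries. The 4 control libraries (control 1 to 4) are from Hand1 fx/+ embryos, with 1 floxed Hand1 allele. The 3 H1CKO libraries (H1CKO 5 to 7) are from T-Cre +/-; Hand1 fx/fx embryos, in which Cre, expressed from T (brachyury) in early mesoderm, can delete both floxed alleles of this transcription factor gene. The sample descriptions of these 3 name a knockout allele over a floxed one, and the genotype field was used. The 4 H1H2H2 libraries (H1H2H2 8 to 11) are from Hand1 H2/H2 embryos, in which both Hand1 alleles carry the related gene Hand2. Cre is named for H1CKO only, so an effect of Cre and the loss of Hand1 cannot be told apart, and no label gives litter or batch or says which libraries share a litter. The p-values therefore measure only the spread between these libraries.

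Library totals ran from 12019377 to 16824228 counts. Hand1 was at 55.6 ± 26.2 CPM (read counts relative to the scaled library total; SD, n = 4) in control, 7.63 ± 2.71 (n = 3) in H1CKO and 9.54 ± 4.49 (n = 4) in H1H2H2. Control 1 and control 2 have 1 yolk sac number in common in their descriptions; their counts differed from each other by a chi-square of 23.1 per degree of freedom over genes, within the 11.2 to 46.6 of the other control pairs, and they were kept as separate samples. The 12 visceral endoderm markers summed to 36855 to 42907 CPM in control and 44168 to 47902 in H1H2H2, but to 9134 to 15850 in H1CKO, where all 12 fell. In the same 3 H1CKO libraries the 11 heart muscle markers summed to 1611 to 4012 CPM, against 25.3 to 90.4 in control and 17.97 to 38.8 in H1H2H2. The 8 neural tube markers summed to 226 to 258 CPM in H1CKO, against 42.6 to 48.3 in control and 38.4 to 64.3 in H1H2H2; Myl2 and Nppa had no count in control, and Sox1, Otx2 and Foxb1 none in H1H2H2. In H1CKO 4 of 4 somite markers and 3 of 4 smooth muscle markers also rose, and 4 of 4 macrophage markers fell. Over all tested genes 27% were called higher and 25.6% lower. Of 8 endothelial markers 1 fell, a share below that of all tested genes. Of 4 mesothelium markers 1 rose and 2 fell, and 2 of 4 trophoblast markers, looked at later, fell. Of 8 primitive erythroid markers 0 were called. The visceral endoderm, heart muscle, neural tube and somite markers moved with the H1CKO group in both comparisons that include it, every marker being called in both. Smooth muscle (3 of 4 called in each) and macrophage markers (4 and 2 of 4) went the same way. Endothelial markers did not, with 3 of 8 lower in H1H2H2 than in H1CKO, near the 33.3% of all tested genes. The part of these markers in the changes of the glycolysis genes was not tested. In whole tissue, fewer cells of a type and less RNA per cell cannot be told apart. From Xist and Y-linked genes, control held 3 female and 1 male library, H1CKO 3 male, and H1H2H2 1 female and 3 male.

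In control yolk sac, transcripts of glucose uptake and of the steps around lactate were among the most abundant of all. On a scale per length (RPKM, the scaled CPM per kilobase of the deposited gene length) Gapdh, the glyceraldehyde phosphate dehydrogenase gene, stood at 620.0 ± 57.5 (SD, n = 4) and Slc2a3, the glucose transporter GLUT3, at 596 ± 66.2, ranks 45 and 50 of 15061, with levels that overlapped. Next came Ldha, a lactate dehydrogenase subunit, at 366 ± 34.9 RPKM, followed by Mif, Pkm, Aldoa and Tpi1, whose means of 314, 313, 309 and 302 lay within their SDs of each other. Slc2a1, the transporter GLUT1, stood at 264 ± 19.7 RPKM and the monocarboxylate transporter gene Slc16a1 (MCT1) at 199 ± 21.8. At the other end were Car9, a carbonic anhydrase of the cell surface, at 0.142 ± 0.103 RPKM, Eno2, the neuronal enolase, at 0.531 ± 0.0976, and Aldoc, the brain aldolase, at 0.741 ± 0.0915. Of the alpha subunits, Hif1a was at 63.6 ± 1.81 RPKM and Epas1 (HIF-2 alpha) at 21.8 ± 10.1.

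For 15 members the level may be understated, because a stretch of at least 300 bases with at least 95% identity occurs in another annotated gene. Gapdh shares such a stretch with 92 genes. Eno1, the main enolase of most tissues, shares 1736 bases at 99.5% identity with Eno1b and is listed with only 13 to 44 reads per library, so its values are uncertain here. Eno1b, which was looked at after its values were seen, had 779, 600, 750 and 805 reads in control 1 to 4 and 1277, 1310 and 1624 in H1CKO 5 to 7, but 2, 13, 7 and 3 in H1H2H2 8 to 11. The Eno1b groups did not overlap, with a log2 fold change of -6.92 in H1H2H2 against control (SE 0.261, adjusted p = 5.71e-08) and 1.07 in H1CKO (SE 0.168, adjusted p = 0.000217), while Eno1 itself stood at 32, 44, 39 and 29 reads in H1H2H2, not below its control range of 13 to 28. Whether reads moved between these copies was not tested. Members that overlap exons of another gene over more than 10% of their own are Gpi1, Pfkp, Pkm, Bnip3, Ankrd37, Ndrg1 and Higd1a. The largest overlap is 28.7%, of Bnip3, and counting by strand is not given in the sources used here. All of these but Ankrd37 are also among the 15. For Pfkp, Ndrg1 and Higd1a the gene with the near-identical stretch is the same gene that overlaps them.

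HIF binds a short core sequence, ACGTG or GCGTG, and promoters of several members are shown. Binding of HIF was not tested here. The window runs from 250 bases before to 50 after a transcription start (RefSeq, GRCm38.p6), and both strands were searched, so that the reverse forms CACGT and CACGC count too and a CACGTG counts at 2 positions. Windows were given for 33 members, not for Slc2a3, Ndrg1, Ero1l and Epas1. Of the 46 windows of these 33 genes 38 (82.6%) held at least 1 core, against 60.3% of 13969 windows of all tested genes. Of all 32851 windows 43.8% did. The median GC content was 62.8% for the members and 60.7% for tested genes. By gene, 90.9% of the 33 had a core, 89.3% of the 28 of them called higher in H1CKO and 66.1% of 10952 tested genes. The list was chosen partly for genes known to respond to low oxygen, so these shares do not test the part of HIF here. The first sequences are from 3 genes with large rises in H1CKO, the fourth from a gene that fell there, and the last from the member with the highest fold change in H1CKO, with cores in capitals, written 5′ to 3′ along the gene.
Slc16a3, chr11:120948817-120949116, plus strand: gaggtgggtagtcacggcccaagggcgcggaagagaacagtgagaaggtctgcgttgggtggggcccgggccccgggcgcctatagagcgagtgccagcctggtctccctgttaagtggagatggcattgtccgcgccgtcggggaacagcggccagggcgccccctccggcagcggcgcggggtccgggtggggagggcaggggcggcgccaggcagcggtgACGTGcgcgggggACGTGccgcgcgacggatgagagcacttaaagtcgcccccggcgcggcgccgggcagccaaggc
Hk2, chr6:82774405-82774704, minus strand: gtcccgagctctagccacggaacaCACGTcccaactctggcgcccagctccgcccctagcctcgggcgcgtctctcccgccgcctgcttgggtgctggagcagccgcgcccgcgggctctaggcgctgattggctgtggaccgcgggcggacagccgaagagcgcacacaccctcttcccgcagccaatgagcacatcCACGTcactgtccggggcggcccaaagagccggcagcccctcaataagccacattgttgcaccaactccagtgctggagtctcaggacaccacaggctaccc
Aldoc, chr11:78322823-78323122, plus strand: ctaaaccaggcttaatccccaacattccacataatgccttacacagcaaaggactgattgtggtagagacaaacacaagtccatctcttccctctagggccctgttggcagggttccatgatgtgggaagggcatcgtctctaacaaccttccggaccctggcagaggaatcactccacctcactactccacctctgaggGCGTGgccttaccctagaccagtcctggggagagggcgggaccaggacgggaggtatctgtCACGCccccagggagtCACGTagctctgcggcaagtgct
Slc16a1, chr3:104638414-104638713, plus strand: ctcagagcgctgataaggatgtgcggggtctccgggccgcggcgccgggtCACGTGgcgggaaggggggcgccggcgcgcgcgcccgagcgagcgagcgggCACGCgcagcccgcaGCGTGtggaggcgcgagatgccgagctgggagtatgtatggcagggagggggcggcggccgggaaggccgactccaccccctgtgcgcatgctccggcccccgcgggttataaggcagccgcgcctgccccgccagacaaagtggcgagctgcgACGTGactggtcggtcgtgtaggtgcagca
Eno2, chr6:124769624-124769923, minus strand: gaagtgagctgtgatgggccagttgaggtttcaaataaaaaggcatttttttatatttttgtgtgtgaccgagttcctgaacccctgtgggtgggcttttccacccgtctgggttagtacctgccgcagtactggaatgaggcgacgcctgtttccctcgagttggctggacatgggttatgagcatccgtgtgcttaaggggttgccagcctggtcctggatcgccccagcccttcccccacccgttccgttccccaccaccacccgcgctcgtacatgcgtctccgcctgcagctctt
The Slc16a3 window, for the lactate exporter MCT4, holds 2 cores on its written strand, 27 and 14 bases before the start, and the Hk2 window holds 2 on the other strand. The Slc16a1 window holds cores at 5 positions although the gene fell in H1CKO, and the Eno2 window, of the member that rose most there, holds none.

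H1CKO against control asks how these genes differ when Hand1 is deleted by T-Cre, and nearly all of them were higher. Of the 37 genes, 30 rose, 3 fell and 4 did not pass the test (adjusted p under 0.05), where 27% of all tested genes were called higher and 25.6% lower. The median log2 fold change of the 37 was 1.04, against 0.03 over all tested genes. Every step of the pathway after glucose entry had members that rose, and the 3 that fell were the transporter genes Slc2a3 and Slc16a1 and the HIF subunit gene Hif1a. In 29 genes all 3 H1CKO libraries lay above all 4 controls and in 3 below them, where 31.5% and 29.1% of tested genes did so. Between 25 and 30 members were called higher under every other setting tried, and 3 lower under each.

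**Figure D1:**
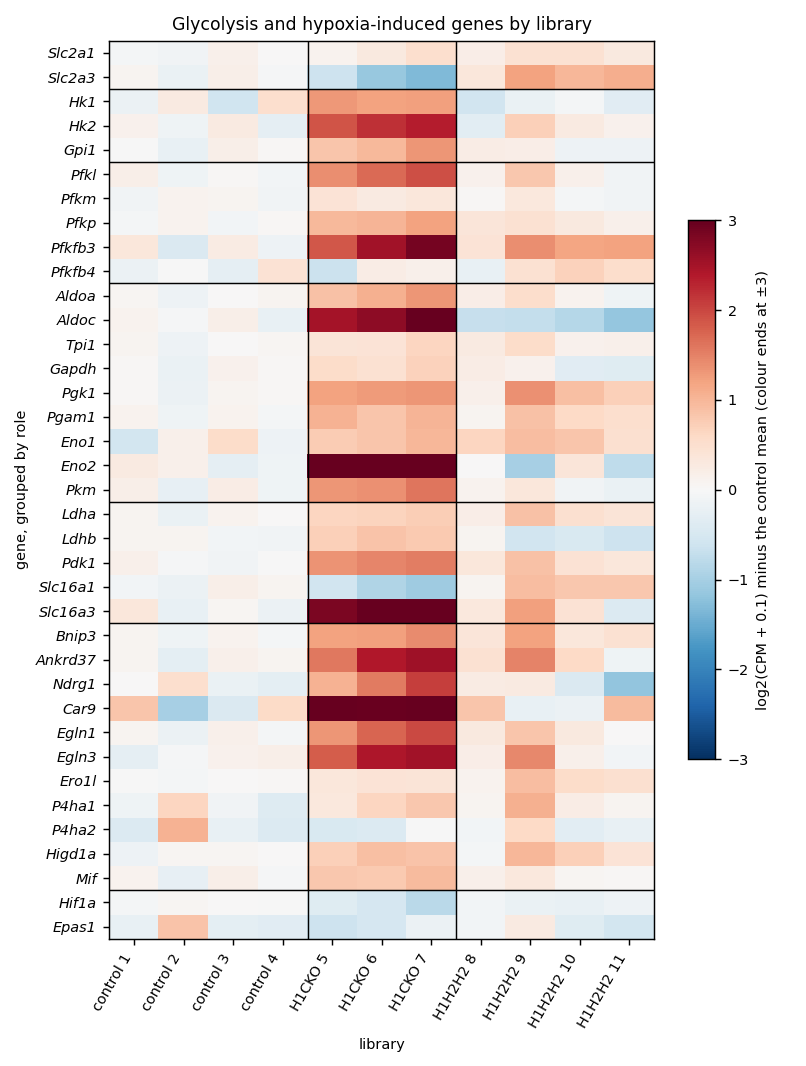
Level of each of the 37 genes in each of the 11 libraries, as log2(CPM + 0.1) minus the mean of the 4 controls (red higher, blue lower, colour ends at ±3), with black lines between roles and between genotype groups. The 3 H1CKO columns are red for 30 called genes and blue for Slc2a3, Slc16a1 and Hif1a, and among the H1H2H2 columns library 9 is highest for 28 of 37 genes.

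H1H2H2 against control gave fewer and smaller changes. Of the 37 genes 12 rose, Aldoc fell and 24 did not pass, where 9.49% of all tested genes were called higher and 7.16% lower; the median log2 fold change was 0.33, against -0.01 over all tested genes. In 10 genes all 4 H1H2H2 libraries lay above all controls and in 2 below them, where 11.0% and 8.0% of tested genes did so. The 12 were both glucose transporters, Pfkp, Pfkfb3, Pgk1, Pgam1, Ldha, Pdk1, Slc16a1, Bnip3, Ero1l and Higd1a. These calls were near the threshold: a term for sex left Slc2a3 as the 1 gene called higher, and leaving out 1 library left between 4 and 12. The counts were 4 without control 1, control 2, control 3 or H1H2H2 11, 5 without H1H2H2 9, and 6 without control 4 or H1H2H2 10; calls over all tested genes also fell, from 16.7% to 5.51% with the sex term. The median log2 fold change was 0.13 without H1H2H2 9. The Slc2a3 rise and the Aldoc fall were kept under every setting.

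H1H2H2 against H1CKO compares the 2 mutant genotypes directly. In this comparison 23 of the genes were lower in H1H2H2, 3 were higher and 11 did not pass, where 33.3% and 31.8% of all tested genes were called. The median log2 fold change was -0.71, against -0.03 over all tested genes. All H1H2H2 libraries lay above all H1CKO libraries in 3 genes and below them in 20, where 29.7% and 32.6% of tested genes did so. Slc2a3, Slc16a1 and Hif1a were the 3 higher genes (5 without H1H2H2 8). The comparisons share libraries, so their calls are not independent. Of the 11 that did not pass, Pfkfb4 and Ero1l were called higher without H1H2H2 8, Tpi1, Pgk1, Ldha and Higd1a were called lower without H1H2H2 9, and Tpi1 and Pgk1 also with upper-quartile scaling.

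**Figure D2:**
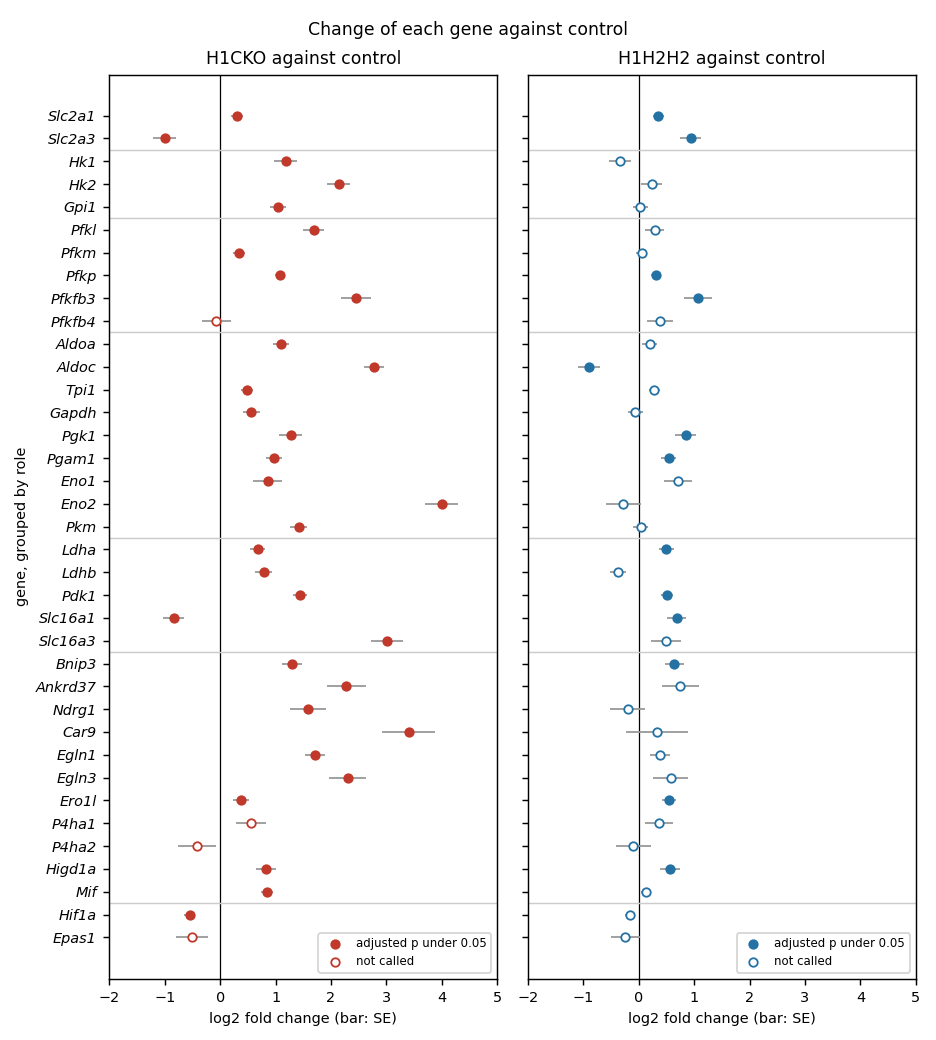
Log2 fold change of each gene against control in H1CKO (left, n = 3 against 4) and H1H2H2 (right, n = 4 against 4) with its SE as a bar; filled points have an adjusted p under 0.05. Slc2a3 and Slc16a1 lie left of 0 in H1CKO and right of 0 in H1H2H2, and most other filled points of H1CKO are open in H1H2H2. Those open points run from -0.37 (Ldhb) to 0.75 (Ankrd37).

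The 2 listed glucose transporter genes moved apart in H1CKO and both rose in H1H2H2. Slc2a3, which encodes a transporter of high glucose affinity (mm10 chromosome 6, 122727809 to 122742745), stood at 2472, 2040.5, 2651 and 2279 CPM in control 1 to 4, at 1539, 1062 and 936 in H1CKO 5 to 7 and at 2958, 5419.8, 4679.5 and 5023 in H1H2H2 8 to 11. None of the 3 groups overlapped another, with H1CKO lowest and H1H2H2 highest, and within H1H2H2 library 8 was nearest to control. Slc2a3 fell in H1CKO to a fold of 0.499 of control (on the log2 scale -1.002, SE 0.213, adjusted p = 0.00183), rose 1.91-fold in H1H2H2 (0.94, SE 0.194, adjusted p = 0.0122) and was 3.83-fold higher in H1H2H2 than in H1CKO (adjusted p = 1.15e-05). Slc2a1, the widely expressed transporter (chromosome 4, 119108745 to 119137329), stood at 648, 635, 748 and 687 CPM in control, 731, 830.0 and 958 in H1CKO and 776, 936, 931 and 832 in H1H2H2. It rose by a log2 fold change of 0.31 in H1CKO (SE 0.109, adjusted p = 0.0325), where H1CKO 5 overlapped the controls, and by 0.35 in H1H2H2 (SE 0.101, adjusted p = 0.0359), with no overlap. Both Slc2a1 calls were lost under 10 of the 20 other settings, among them the sex term (adjusted p = 0.132 and 0.0963).

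The enzymes of hexose phosphorylation rose in H1CKO, 3 of 3, where 27% of all tested genes were called higher. In H1H2H2 against control edgeR, DESeq2 and limma-voom each called 0 of 3, and 0 had an unadjusted p under 0.05 in edgeR. Hk2, the inducible hexokinase (chromosome 6, 82725027 to 82774454), stood at 60.03, 49.9, 66.7 and 45.9 CPM in control, 204, 251 and 282 in H1CKO and 44.4, 90.6, 66.9 and 59.7 in H1H2H2. All H1CKO libraries were above all others, while H1H2H2 overlapped control. The change in H1CKO was 4.42-fold (on the log2 scale 2.14, SE 0.206, adjusted p = 9.29e-06). Hk1, the constitutive hexokinase, stood at 36.7, 50.3, 27.4 and 59.6 CPM in control, 104, 95.7 and 97.9 in H1CKO and 28.2, 36.2, 39.7 and 33.1 in H1H2H2, with log2 fold changes of 1.19 (SE 0.205, adjusted p = 0.000438) and -0.34 (adjusted p = 0.228). Gpi1, which converts glucose 6-phosphate to fructose 6-phosphate, stood at 289, 249.8, 327 and 297 CPM in control, 511, 567 and 719 in H1CKO and 335, 333, 261 and 258 in H1H2H2. All its H1CKO libraries were above all others, with a log2 fold change of 1.04 in H1CKO (SE 0.14, adjusted p = 7.1e-05).

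At the phosphofructokinase step, the main control point of glycolysis, 4 of 5 genes rose in H1CKO and 2 in H1H2H2. Over all tested genes 27% and 9.49% were called higher. Pfkl, the liver-type subunit and the most abundant of the 3 per length, stood at 138, 111, 124 and 116 CPM in control, 319.9, 391.9 and 464 in H1CKO and 132, 213, 136 and 112 in H1H2H2. It rose 3.22-fold in H1CKO (on the log2 scale 1.69, SE 0.191, adjusted p = 2.32e-05); in H1H2H2 only library 9 stood clear of control and the test was not passed (adjusted p = 0.27). Pfkp, the platelet-type subunit, stood at 43.6, 49.04, 42.9 and 46.5 CPM in control, 89.8, 92.7 and 105 in H1CKO and 58.1, 62.7, 55.4 and 50.1 in H1H2H2, so that no 2 groups overlapped. Pfkp rose in both genotypes, by 1.08 (SE 0.0907, adjusted p = 4.95e-06) and by 0.31 on the log2 scale (SE 0.0852, adjusted p = 0.0302). Pfkm, the muscle type, rose by 0.34 in H1CKO (adjusted p = 0.0204, 0.201 with the sex term). Pfkfb3, whose enzyme makes the fructose 2,6-bisphosphate that activates phosphofructokinase (chromosome 2, 11471431 to 11553929), stood at 21.8, 12.8, 20.5 and 15.5 CPM in control, 63.5, 99.8 and 127 in H1CKO and 23.1, 45.9, 39.2 and 40.03 in H1H2H2. Its 3 groups did not overlap, and it rose 5.49-fold in H1CKO (2.46, SE 0.268, adjusted p = 1.84e-05) and 2.10-fold in H1H2H2 (1.07, SE 0.252, adjusted p = 0.0184). Its relative Pfkfb4 was not called with all libraries, at 16.7 ± 3.92 CPM in control, 15.98 ± 4.75 in H1CKO and 21.8 ± 5.37 in H1H2H2 (mean ± SD); without H1H2H2 8 Pfkfb4 was called higher in H1H2H2 than in H1CKO (0.61, adjusted p = 0.0324).

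All 9 lower glycolysis genes rose in H1CKO, with log2 fold changes from 0.48 to 3.997, and in H1H2H2 2 rose and 1 fell. Of all tested genes 27% were called higher in H1CKO, and 9.49% higher and 7.16% lower in H1H2H2. The largest change was in Eno2 (chromosome 6, 124760053 to 124769673), which stood at 1.78, 1.65, 1.19 and 1.32 CPM in control, 19.4, 21.5 and 30.6 in H1CKO and 1.48, 0.684, 1.92 and 0.825 in H1H2H2. Every H1CKO library was well above every other, a 15.96-fold rise (SE 0.3 on the log2 scale, adjusted p = 2.72e-06); Eno2 is also a gene of neural tissue, whose markers rose in the same libraries. Aldoc stood at 2.27, 2.06, 2.38 and 1.79 CPM in control, 12.5, 14.05 and 17.3 in H1CKO and 1.27, 1.24, 1.12 and 0.894 in H1H2H2. It was the 1 gene of the 37 that rose in H1CKO (2.78, SE 0.185, adjusted p = 1.37e-06) and fell in H1H2H2 (-0.90, SE 0.195, adjusted p = 0.0144), with no overlap between any 2 groups. Among the abundant enzymes Gapdh stood at 942, 809, 1014 and 945 CPM in control, 1350.4, 1264 and 1501 in H1CKO and 1077, 1015, 735 and 723 in H1H2H2, a rise of 0.56 in H1CKO (SE 0.146, adjusted p = 0.00636; 0.118 with the sex term). Pkm, a pyruvate kinase, rose 2.67-fold there (1.42, adjusted p = 1.56e-05), Aldoa 2.14-fold (adjusted p = 6.62e-05) and Tpi1 1.40-fold (adjusted p = 0.0034). In H1H2H2 against control Gapdh, Pkm and Aldoa overlapped control and had adjusted p = 0.769, 0.884 and 0.324 in edgeR. For Tpi1, at 577, 702, 529.8 and 535 CPM in H1H2H2 and 506, 436, 485 and 504 in control, all H1H2H2 libraries lay above all controls; its log2 fold change of 0.28 was not called by edgeR (adjusted p = 0.083) but was by DESeq2 (0.27, adjusted p = 0.0451). Pgk1, the first step that yields ATP, stood at 101, 86.4, 104 and 101 CPM in control, 228, 237 and 246 in H1CKO and 109, 254, 183 and 161 in H1H2H2. It rose in both genotypes (1.27, SE 0.201, adjusted p = 0.000234, and 0.85, SE 0.189, adjusted p = 0.0156), and H1H2H2 9 lay above all H1CKO libraries while H1H2H2 8 was nearest to control. Pgam1, a phosphoglycerate mutase, stood at 62.2, 53.03, 62.7 and 55.6 CPM in control, 119.8, 104 and 117 in H1CKO and 61.6, 107, 87.8 and 82.3 in H1H2H2. H1H2H2 8 lay within the control range and H1H2H2 9 within that of H1CKO, with rises of 0.96 (adjusted p = 0.000166) and 0.54 (adjusted p = 0.0238).

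Of the 5 genes of pyruvate and lactate, 4 rose in H1CKO and Slc16a1 fell, and 3 rose in H1H2H2. Of all tested genes 27% were called higher and 25.6% lower in H1CKO, and 9.49% higher in H1H2H2. Slc16a1 (chromosome 3, 104638664 to 104658462), whose product carries lactate and other monocarboxylates either way across the membrane, stood at 826, 775, 985 and 933 CPM in control, 591, 470.3 and 416 in H1CKO and 927, 1677, 1525 and 1536 in H1H2H2. Like Slc2a3 it was lowest in H1CKO and highest in H1H2H2, although H1H2H2 8 lay within the control range. It fell to a fold of 0.559 in H1CKO (-0.84, SE 0.189, adjusted p = 0.00269) and rose 1.61-fold in H1H2H2 (0.69, SE 0.172, adjusted p = 0.0231; 0.069 with the sex term). Slc16a3, a transporter suited to lactate export (chromosome 11, 120948484 to 120959000), went the other way in H1CKO: it stood at 26.9, 18.3, 22.4 and 18.9 CPM in control, 152, 171 and 200.4 in H1CKO and 26.5, 50.2, 28.9 and 16.1 in H1H2H2. The rise was 8.07-fold (3.01, SE 0.286, adjusted p = 8.75e-06), and H1H2H2 overlapped control (adjusted p = 0.207).

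Ldha stood at 741, 609, 759.9 and 712 CPM in control, 1105, 1111 and 1167 in H1CKO and 803, 1295, 976 and 915 in H1H2H2. It rose in both genotypes without overlap with control, by 0.68 (SE 0.14, adjusted p = 0.00156) and 0.50 (SE 0.131, adjusted p = 0.0273). Ldhb, the other main subunit, rose in H1CKO by 0.79 (adjusted p = 0.000877) and was at -0.37 in H1H2H2 (adjusted p = 0.0899); without H1H2H2 8 it was called lower there (-0.57, adjusted p = 0.00118). Pdk1, the kinase that shuts pyruvate dehydrogenase off, stood at 71.3, 62.4, 59.8 and 64.1 CPM in control, 163, 177 and 186 in H1CKO and 81.2, 118, 86.2 and 81.1 in H1H2H2. Its groups were ordered control, H1H2H2, H1CKO with no overlap, at 1.44 (SE 0.124, adjusted p = 5.19e-06) and 0.51 (SE 0.116, adjusted p = 0.0168).

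**Figure D3:**
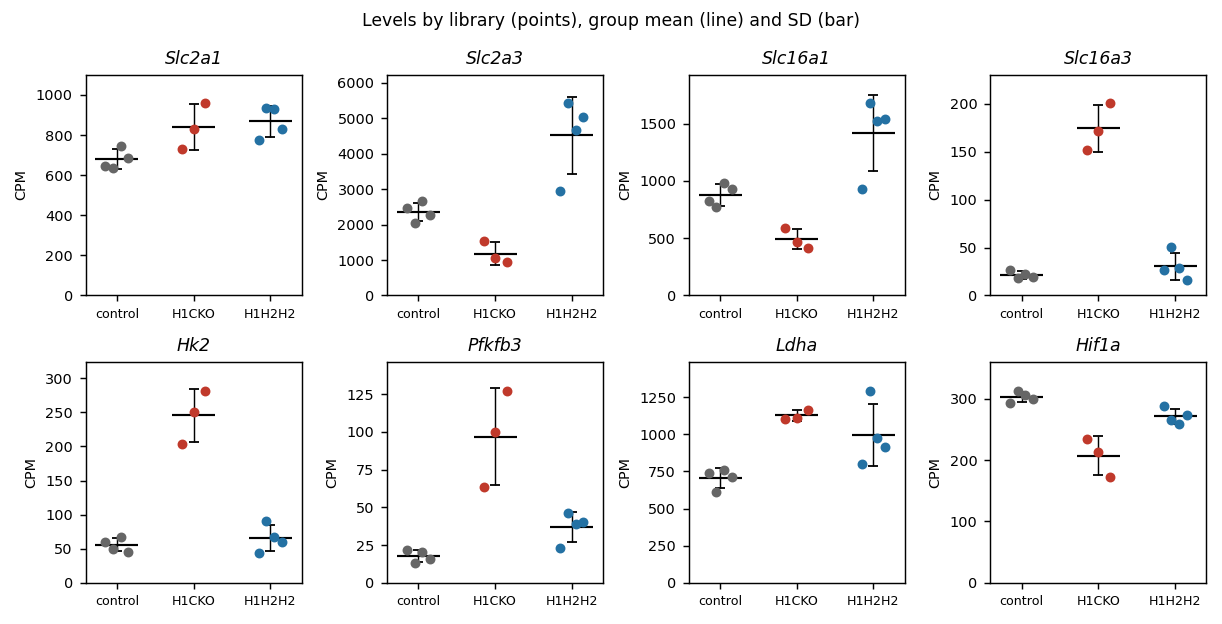
CPM of 8 genes in each library (points), with the group mean (line) and SD (bar), for control (n = 4), H1CKO (n = 3) and H1H2H2 (n = 4). Slc2a3 and Slc16a1 are lowest in H1CKO and highest in H1H2H2, Hk2, Pfkfb3 and Slc16a3 are highest in H1CKO, and Hif1a is lowest in H1CKO.

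Among the 11 other hypoxia-induced genes 9 rose in H1CKO and 3 in H1H2H2, where 27% and 9.49% of all tested genes were called higher. The 3 calls in H1H2H2 were each lost under some of the other settings. Car9 had the largest change at the lowest level, at 0.497, 0.0687, 0.149 and 0.397 CPM in control, 3.22, 2.52 and 3.36 in H1CKO and 0.494, 0.187, 0.198 and 0.55 in H1H2H2; the control values rest on 1 to 7 reads per library. The rise was 10.6-fold (SE 0.48 on the log2 scale, adjusted p = 0.000102), and H1H2H2 overlapped control. Of the oxygen-sensing hydroxylase genes, the 2 on the list of 37, known to be induced by HIF, rose in H1CKO. Egln3 went from 4.51 ± 0.634 to 22.3 ± 5.52 CPM (mean ± SD, 2.31, adjusted p = 0.000118). Egln1 went from 39.2 ± 3.91 to 128 ± 28.4 CPM (1.71, adjusted p = 1.79e-05). Egln2 (-0.14, adjusted p = 0.231) and Hif1an (0.01, adjusted p = 0.894), outside the 37, were not called in H1CKO. Ankrd37, a small ankyrin repeat gene, rose by 2.28 (adjusted p = 0.00019) and the stress gene Ndrg1 by 1.59 (adjusted p = 0.00157), and neither was called in H1H2H2.

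Bnip3, which acts in the removal of mitochondria, stood at 69.5, 59.8, 70.5 and 62.7 CPM in control, 151, 155 and 175 in H1CKO and 84.8, 152, 82.8 and 90.5 in H1H2H2. It rose in H1CKO (1.29, SE 0.18, adjusted p = 9.68e-05) and in H1H2H2 (0.64, SE 0.169, adjusted p = 0.0272), where library 9 stood at the H1CKO level and the other 3 above control. Ero1l, an oxidase of protein folding in the endoplasmic reticulum, stood at 82.3, 80.5, 84.3 and 85.7 CPM in control, 105, 111 and 108 in H1CKO and 89.2, 158, 121 and 117 in H1H2H2, all mutant libraries being above all controls. Its rises were 0.38 (SE 0.14, adjusted p = 0.0388; 0.148 with the sex term) and 0.55 (SE 0.131, adjusted p = 0.02). Higd1a, a mitochondrial protein gene, stood at 17.8, 20.6, 20.7 and 19.9 CPM in control, 32.7, 36.7 and 35.95 in H1CKO and 18.99, 39.2, 32.2 and 26.1 in H1H2H2, with H1H2H2 8 inside the control range. It changed by 0.83 (adjusted p = 0.00266) and 0.56 (adjusted p = 0.0466), the latter lost under 14 of 20 other settings. Mif, a secreted cytokine, stood at 185, 146, 197 and 169 CPM in control, 304, 297 and 335 in H1CKO and 192, 215, 179 and 176 in H1H2H2. H1H2H2 overlapped control, and the rise in H1CKO had no overlap (0.84, SE 0.105, adjusted p = 4.24e-05).

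The collagen prolyl hydroxylase genes were the 2 of the 11 other hypoxia-induced genes not called in H1CKO with all libraries. P4ha1 stood at 95.7, 164, 97.6 and 80.8 CPM in control and P4ha2 at 47.6, 129.8, 54.1 and 46.98, with control 2 far above the other 3 in both. Trophoblast markers, looked at after these values were seen, summed to 131 CPM in control 2, against 36.7 to 45.5 in the other controls. Their part in the values of control 2 was not tested. In H1CKO P4ha1 was at 161 ± 27.1 CPM and P4ha2 at 51.96 ± 8.77 CPM (mean ± SD, n = 3), and neither was called with all libraries. Without control 2 P4ha1 was called higher in H1CKO (0.78, adjusted p = 0.0175), and P4ha2 was not (0.03, adjusted p = 0.917).

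The HIF alpha subunit genes did not follow the genes that HIF is known to induce. Hif1a (chromosome 12, 73907867 to 73947530), whose product is controlled mostly by its destruction, stood at 293, 313, 305 and 299.5 CPM in control, 235, 214 and 172 in H1CKO and 288, 265, 258 and 273 in H1H2H2. No 2 of the groups overlapped, control being highest. It fell in H1CKO (-0.55, SE 0.0957, adjusted p = 0.000461) but was not called in H1H2H2 (-0.16, SE 0.0874, adjusted p = 0.214). Of the 2 subunit genes edgeR, DESeq2 and limma-voom each called 0 in H1H2H2, with 0 at an unadjusted p under 0.05. Epas1 stood at 93.1, 197, 89.3 and 86.8 CPM in control, again with control 2 apart, and at 81.9 ± 13.5 in H1CKO and 98.5 ± 25.02 in H1H2H2 (mean ± SD), and was not called.

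Libraries of 1 genotype differed in how far these genes moved. Of the 30 genes called higher in H1CKO, 24 had their lowest H1CKO value in H1CKO 5 and 24 their highest in H1CKO 7, where 47.2% and 45.0% of all 3968 genes called higher did so. Marker lists differed in their order over H1CKO 5, 6 and 7. The heart muscle markers ran the other way from the 30 genes, at 4012, 1877 and 1611 CPM. So did the smooth muscle markers, at 627, 504 and 306 CPM, and the neural tube markers, at 258, 255 and 226. The somite markers ran the same way as the 30 genes, at 31.4, 37.03 and 42.7 CPM, as did the endothelial markers, at 540, 575 and 631. The visceral endoderm markers were at 15850, 9134 and 9696 CPM. The part of these tissues in the library order was not tested. In H1H2H2, all 12 called genes were highest in library 9 and 9 of the 12 were lowest in library 8, against 57.2% and 80.7% of all genes called higher there. Of the 37 genes, 28 lay above every control in H1H2H2 9, 21 in H1H2H2 10, 17 in H1H2H2 8 and 15 in H1H2H2 11, where 34.9%, 33.7%, 26.4% and 33.1% of tested genes did. In H1CKO 5, 6 and 7 the counts were 29, 31 and 31, where 39.6%, 41.6% and 41.6% did. The globin genes took 1.37% of counts in H1H2H2 9, the highest share of the 11 libraries. The 8 primitive erythroid markers summed to 14653 CPM there, against 2848 to 8804 in the other H1H2H2 libraries, and the 8 endothelial markers to 314 CPM, against 477 to 601. The part of these cells in the values of H1H2H2 9 was not tested.

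Within families, single isoforms took shares in H1CKO that lay outside the control range, although no test passed after adjustment. Slc2a1 took 30.8% ± 1.62 of the summed RPKM of Slc2a1 and Slc2a3 in control (mean ± SD), 52.7% ± 9.62 in H1CKO and 23.4% ± 3.83 in H1H2H2. Slc16a1 took 95.9% ± 0.847 of Slc16a1 and Slc16a3 in control, 61.9% ± 7.35 in H1CKO and 96.4% ± 1.46 in H1H2H2. Pfkl went from 57.5% ± 3.52 of the 3 phosphofructokinase genes in control to 72.4% ± 3.21 in H1CKO, and Pfkfb3 from 40.4% ± 9.81 of Pfkfb3 and Pfkfb4 to 79.3% ± 2.40. In each of these 4 families no H1CKO share overlapped a control share (two-sided exact permutation p = 0.0286 each, the smallest these group sizes allow; adjusted p = 0.0571 over 36 tests). None of the 36 tests passed after adjustment, and 18 had an unadjusted p under 0.05. The H1CKO and control shares also did not overlap for P4ha1, Egln1 and Aldoa, with the same permutation p and adjusted p. P4ha1 took 49.3% ± 4.96 of P4ha1 and P4ha2 in control and 64.2% ± 2.38 in H1CKO. Egln1 took 86.8% ± 2.02 of Egln1 and Egln3 in control and 81.4% ± 1.02 in H1CKO. Aldoa took 99.76% and 99.24% of Aldoa and Aldoc. Ldha kept 96.4% ± 0.53 of Ldha and Ldhb in control, 96.2% ± 0.179 in H1CKO and 97.9% ± 0.841 in H1H2H2, with exact permutation p = 0.514 for H1CKO against control. Enolase shares were not read, given the copies of Eno1.

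**Figure D4:**
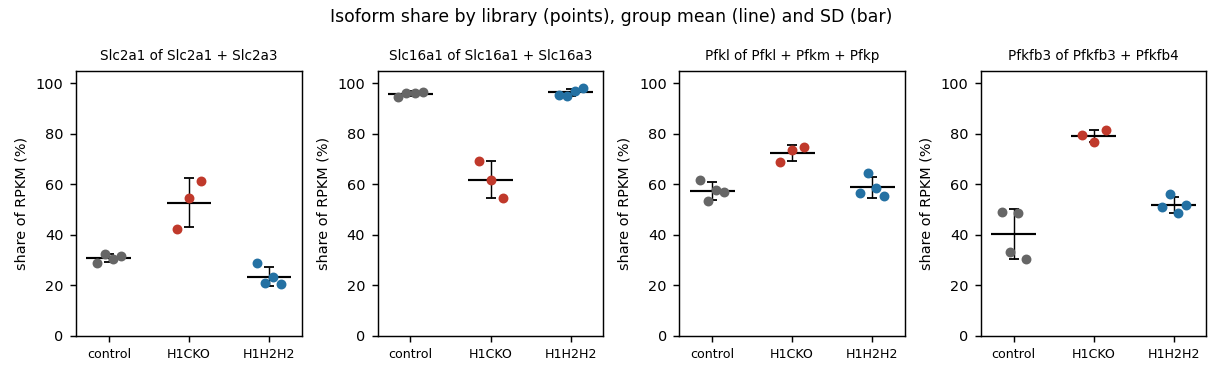
Share of 1 isoform in the summed RPKM of the listed members of its family in each library (points, percent), with the group mean (line) and SD (bar). The 3 H1CKO libraries lie above control for Slc2a1, Pfkl and Pfkfb3 and below it for Slc16a1, and the H1H2H2 libraries lie near control for Slc16a1 and Pfkl.

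Neighbouring pathways did not all move with glycolysis. The counts of their lists stand beside 27% higher and 25.6% lower calls over all tested genes in H1CKO, and 9.49% and 7.16% in H1H2H2. The rises and falls counted for these lists in H1H2H2 were not repeated under the other settings. Over all tested genes, H1H2H2 calls fell from 16.7% to 5.51% with the sex term. In a list of 29 genes of pyruvate dehydrogenase and the citric acid cycle, which burn pyruvate in mitochondria, 18 fell and 2 rose in H1CKO (median log2 fold change -0.37), and 10 rose and 1 fell in H1H2H2 (median 0.17). Suclg1, a succinyl-CoA ligase subunit, went from 123 ± 10.3 CPM in control to 66.8 ± 7.10 in H1CKO (-0.88, adjusted p = 1.8e-05) and 163 ± 12.2 in H1H2H2 (0.41, adjusted p = 0.0127), and Ogdh, of the oxoglutarate dehydrogenase complex, fell in H1CKO (-0.72, adjusted p = 4.15e-05). The 2 that rose in H1CKO were Pdk3 and Pdk4, further kinases that turn pyruvate dehydrogenase off, named after their values were seen (0.91 and 1.28). Visceral endoderm markers fell in the same libraries, and their part in the citric acid cycle values was not tested.

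Of 26 further hypoxia-induced genes, 17 rose and 3 fell in H1CKO (median 1.11), and 3 rose in H1H2H2 (median 0.15). Vegfa, the vascular growth factor, went from 84.3 ± 7.09 to 189 ± 31.5 CPM (1.17, adjusted p = 5.3e-06), and Mxi1, an antagonist of MYC, from 11.6 ± 1.57 to 37.7 ± 3.73 (1.71, adjusted p = 9.51e-06). Among 15 regulators of HIF 4 rose and 1 fell in H1CKO, a share of higher calls near that of all tested genes. The 2 with the smallest adjusted p were Arnt2, a beta subunit known from neural tissue (2.78, adjusted p = 0.000103), and Siah1a, a ubiquitin ligase (0.54, adjusted p = 0.00177). In H1H2H2 4 of the 15 rose and 1 fell; the 4, named after their values were seen, were Vhl, Tceb1, Cul2 and Rbx1 (0.56, 0.58, 0.52 and 0.51). They encode subunits of the ubiquitin ligase that removes HIF alpha; Tceb2, a further subunit on the list, stood at -0.14 and was not called (adjusted p = 0.191).

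Other isoforms of glycolysis and gluconeogenesis gave 5 higher and 9 lower of 17 tested in H1CKO (median -0.41), the higher calls at a share near that of all tested genes (27% higher, 25.6% lower). The 2 called genes with the smallest adjusted p both rose and are known from muscle: Slc2a4, the insulin-responsive transporter (2.76, adjusted p = 4.73e-06), and Pgam2 (3.63, adjusted p = 5.05e-06), in the libraries that held the heart muscle markers. In H1H2H2 edgeR called 0 of the 17, with 5 at an unadjusted p under 0.05; DESeq2 called 1 and limma-voom 0. The pentose phosphate list gave 2 higher and 2 lower of 8 in H1CKO, near the shares over all tested genes, with H6pd, of the endoplasmic reticulum, at -1.54 (adjusted p = 7.73e-07) and Rpia at -0.65 (adjusted p = 0.0022), and 1 higher in H1H2H2. The glycogen list gave 4 higher and 1 lower of 10 in H1CKO, with Ppp1r3c, which targets a phosphatase to glycogen, at 4.27 (adjusted p = 1.93e-06) and Pgm2 at 1.27 (adjusted p = 3.56e-05), and 1 higher and 2 lower in H1H2H2.

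**Figure D5:**
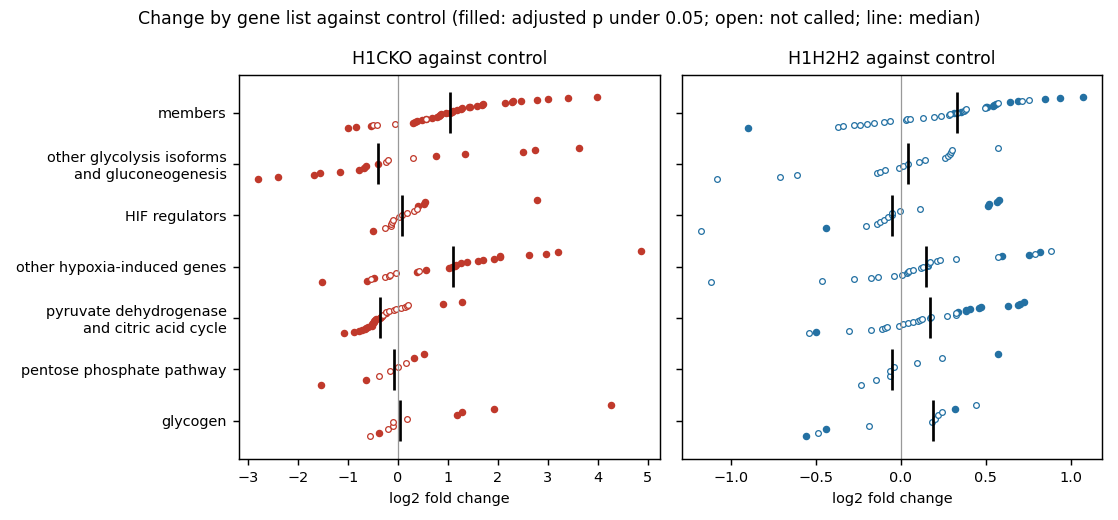
Log2 fold change against control of the 37 genes and of the tested genes of 6 neighbouring lists, in H1CKO (left) and H1H2H2 (right, on its own scale); filled points have an adjusted p under 0.05 and the black line is the list's median. In H1CKO the medians of the 37 genes and of the other hypoxia-induced genes are 1.04 and 1.11, and that of the pyruvate dehydrogenase and citric acid cycle list is -0.37.

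In the authors' deposited table, 28 of the 37 genes are higher and 3 lower in H1CKO against control at a false discovery rate under 0.05, 13 higher and 1 lower in H1H2H2 against control, and 3 higher and 22 lower in H1H2H2 against H1CKO. No gene differed in direction from the values above; calls differed for Slc2a1 and Ero1l in the first comparison, for Eno1 in the second and for Pfkm in the third.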

How the data were processed

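The authors deposited 1 table that holds, per the file headers, unnormalised read counts for each gene in each library; STAR 2.5.2b, featureCounts, Subread 1.5.1, edgeR and mm10 are named in the submitters' processing notes, with no role or setting. The same table holds log2 FPKM and log2 fold changes that the authors deposited, and their p-value and FDR columns; only the counts were tested here, and no per-sample column was left unmapped.

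Counts were tested in edgeR 4.0.16 (R 4.3.3) with filterByExpr, TMM factors and 1 quasi-likelihood model of all 11 libraries with a coefficient per group. The p-values were adjusted over all 14671 genes by Benjamini and Hochberg, and called means an adjusted p under 0.05. The SE is the log2 fold change over the square root of F. CPM use TMM-scaled library sizes, and RPKM divide them by the deposited gene length. The common biological coefficient of variation was 0.171. On simulated data over 14671 genes, 67, 67 and 66 genes were changed 1.5-, 2- and 4-fold. The test recovered 26.9%, 65.7% and 89.4% of them for H1CKO against control, and 43.3%, 67.2% and 93.9% for H1H2H2 against control. In the real data 52.6% and 16.7% of genes were called in these comparisons. The adjustment depends on how many genes change, so the simulated shares do not give the sensitivity of the real comparisons. Isoform shares were compared by two-sided exact permutation. Copies were searched with BLAST+ 2.17.0 in GENCODE vM21 transcripts (GRCm38). Marker sums are CPM over the list genes in the table.

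The members and lists were chosen with earlier results of these data known. Values in every library are given for, per role, the gene highest in control, the one with the largest H1CKO change and the one with the smallest p in H1H2H2, and for every gene called in H1H2H2. In the other lists the 2 called genes with the smallest adjusted p in H1CKO are named, with group means or log2 fold changes. Alternatives were DESeq2 1.42.0 factors or test, upper-quartile scaling, limma-voom 3.58.1, no filter, 1 CPM in 3 libraries, Rn45s and globins left out, a sex term, only the 2 groups, and each library left out.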

Additional observations from a re-analysis of the deposited data

Results flagged for a closer look

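Among 74 sets of 4 libraries (the 37 genes in control and in H1H2H2), 6 had 1 library far from the other 3 by Dixon's test at the 95% level; chance flags about 1 in 20 such sets. In H1H2H2 library 9 stood above the others for Pdk1 at 118 CPM (others 81.1 to 86.2), for Bnip3 at 152 CPM (others 82.8 to 90.5), for Egln3 at 12.4 CPM (others 4.20 to 5.15) and for P4ha1 at 219.7 CPM (others 111 to 124). In control, library 2 stood above the others for P4ha2 at 129.8 CPM (others 47.0 to 54.1) and for Epas1 at 197 CPM (others 86.8 to 93.1).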

How the results depend on the processing

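No paired analysis was possible because the groups share no replicate numbers. Of the 33 genes called in H1CKO against control 28 kept the call under all 20 alternatives, and Slc2a1, Pfkm, Gapdh, Eno1 and Ero1l lost it under some; of the 26 called in H1H2H2 against H1CKO 24 kept it, and Pfkm and Pgam1 did not; of the 13 called in H1H2H2 against control 2 kept it, Slc2a3 and Aldoc. With 1 library left out, the genes called higher numbered 26 to 30 in H1CKO, 4 to 12 in H1H2H2 and 3 to 5 in H1H2H2 against H1CKO, and those called lower 3 in H1CKO, 1 to 2 in H1H2H2 and 21 to 27 in H1H2H2 against H1CKO. With the sex term 1 gene was called higher in H1H2H2 against control. The median log2 fold change in H1H2H2 against control was 0.13 without H1H2H2 9. Upper-quartile scaling moved the median of all genes by -0.11 in H1H2H2 against H1CKO and by under 0.1 in the others. Signs changed only in results that were not called. Upper-quartile scaling gave a log2 fold change of 0.0015 for Pfkfb4 in H1CKO, -0.017 for Gpi1, -0.00020 for Pfkm and -0.015 for Pkm in H1H2H2, and -0.068 for Slc2a1 in H1H2H2 against H1CKO. The sex term gave 0.23 for Pfkfb4 in H1CKO, and -0.089 for Gpi1, -0.018 for Pfkm, 0.038 for Eno2 and -0.085 for Pkm in H1H2H2. With 1 library left out, the log2 fold change ran in H1CKO from -0.26 to 0.14 for Pfkfb4 and from -0.61 to 0.031 for P4ha2; in H1H2H2 from -0.050 to 0.085 for Gpi1, -0.059 to 0.093 for Pfkm, -0.19 to 0.015 for Gapdh, -0.085 to 0.10 for Pkm, -0.39 to 0.018 for Ndrg1, -0.36 to 0.38 for P4ha2 and -0.43 to 0.13 for Epas1; and in H1H2H2 against H1CKO from -0.025 to 0.15 for Slc2a1. The difference in isoform share between H1H2H2 and control ran from -0.66 to 2.74 percentage points for Pfkl, from -0.16 to 0.88 for Slc16a1 and from -1.43 to 0.91 for Egln1. The cause was not tested.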
